A study of Mus musculus with 20 samples.

Results

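The metallothionein and zinc transporter genes described here are 9 of the 38924 genes in the liver RNA-seq table: Mt1, Mt2, Mtf1, Slc30a1, Slc30a10, Slc39a4, Slc39a5, Slc39a8 and Slc39a14. They were taken by gene symbol. The members were selected on measured values of these same libraries, and since the comparison used for that choice was not recorded, every member value below is a description and carries no p-value. Liver RNA came from 20 male mice in 4 groups of 5, bought at 5 weeks of age and acclimated for 1 week before 12 weeks of diet. The groups were C57BL/6J wild type (WT) mice on control diet (NDWT) or CDAHFD (HFWT), and TSP-1 knockout mice on control diet (NDKO) or CDAHFD (HFKO). CDAHFD is a high fat diet that lacks choline, is limited in methionine and gives its protein as defined amino acids. TSP-1, thrombospondin 1, is a secreted matrix protein that activates TGF-β1, and the study asked how its loss alters diet-induced liver injury. The knockout is a stock line, and the mice are not described as littermates of the WT mice. CDAHFD differs from the control diet in several components at once, so the values below cannot be tied to any one of them. Whole liver tissue was sequenced, so fewer cells of a type and less RNA per cell cannot be told apart.

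Metallothioneins are small, cysteine-rich proteins that bind zinc and copper in the cytosol, and liver is a main site of their production. Their genes are switched on by MTF-1, a zinc-sensing transcription factor that binds short metal response elements (MREs), and also by glucocorticoids and by interleukin-6 signaling. Zinc transporters fall into the SLC30 (ZnT) family, which moves zinc out of the cytosol, and the SLC39 (ZIP) family, which moves zinc into it, and some members carry manganese or iron as well.

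Libraries held 15641545 to 23276322 fragments assigned to genes. Thbs1, the gene of TSP-1, lay at 0.058 to 0.326 FPKM (fragments per gene, scaled by gene length and library total) in NDWT and at 0.986 to 1.895 in NDKO, which goes against the genotype labels on control diet, and at 3.46 to 6.10 in HFWT and 3.05 to 4.40 in HFKO. A gene-level value can include parts of the gene that the knockout leaves in place. Why NDKO lay above NDWT was not tested, so Thbs1 does not bear out the labels on control diet. On CDAHFD the HFKO and HFWT ranges overlapped, so Thbs1 does not bear out the labels there either. NDKO and HFKO are used below as the libraries labelled TSP-1 null. Every genotype value below, that of Mt2 on control diet among them, rests on those labels. Library HFWT 5 stood apart, with 1.08% of its fragments on the 57-base gene Gm23935 against 0.0274% to 0.229% in the others. The hepatocyte markers were abundant in every library, with a summed level of 25306 FPKM or more over 7 genes. The macrophage marker sum was 128 to 175 FPKM in NDWT and 122 to 204 in NDKO, against 1118 to 1496 in HFWT and 677 to 1426 in HFKO. Clec4f, a marker in that sum, went the other way. Its mean was 67.5 FPKM in NDWT and 29.7 in HFWT, and 69.3 in NDKO and 40.7 in HFKO. The means of the other macrophage markers were higher on CDAHFD. Stellate (11.3 to 16.7 FPKM on control diet against 99.6 to 245 on CDAHFD), cholangiocyte (12.4 to 18.0 against 182 to 488) and neutrophil (1.12 to 4.98 against 12.8 to 32.8) sums were also higher on CDAHFD, while the endothelial (36.2 to 48.5 against 42.2 to 63.9) and erythroid (126 to 339 against 104 to 221) sums overlapped. The macrophage, stellate, cholangiocyte and neutrophil sums moved with every diet difference given below, and their part in it was not tested.

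The MREs near the gene starts are shown first, because they are the feature through which MTF-1 is known to act on Mt1, Mt2 and Slc30a1. RefSeq windows of 300 bases on build GRCm38.p6, from 250 before to 50 after the gene start, were found for 7 of the 9 members. Slc39a4 and Slc39a14 were not among them. The letters TGCACNC or TGCGCNC were searched on both strands. The 4 windows below are those of the metallothionein pair and of the exporters that hold 2 or more matches, printed 5′ to 3′ on the gene strand with the matches in capitals.
Mt1, chr8:94178839-94179138, plus strand: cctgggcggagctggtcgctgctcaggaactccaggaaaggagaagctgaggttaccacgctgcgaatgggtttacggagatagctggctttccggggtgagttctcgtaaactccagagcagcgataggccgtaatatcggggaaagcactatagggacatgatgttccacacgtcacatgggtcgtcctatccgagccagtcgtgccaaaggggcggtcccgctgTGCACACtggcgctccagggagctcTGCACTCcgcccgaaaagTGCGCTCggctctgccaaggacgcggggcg
Mt2, chr8:94172368-94172667, plus strand: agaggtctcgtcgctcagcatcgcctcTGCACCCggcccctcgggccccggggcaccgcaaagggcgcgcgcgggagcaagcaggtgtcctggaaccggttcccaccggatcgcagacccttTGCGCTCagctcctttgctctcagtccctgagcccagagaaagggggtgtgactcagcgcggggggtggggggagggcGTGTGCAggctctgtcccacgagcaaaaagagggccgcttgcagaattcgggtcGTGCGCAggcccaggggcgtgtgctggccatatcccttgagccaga
Slc30a1, chr1:191906531-191906830, plus strand: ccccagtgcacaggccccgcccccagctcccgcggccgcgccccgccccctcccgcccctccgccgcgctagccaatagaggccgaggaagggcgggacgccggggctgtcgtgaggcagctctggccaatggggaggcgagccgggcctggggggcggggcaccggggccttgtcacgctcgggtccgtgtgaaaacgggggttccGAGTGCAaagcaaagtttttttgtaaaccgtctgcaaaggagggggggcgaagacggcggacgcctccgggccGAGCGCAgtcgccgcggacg
Slc30a10, chr1:185454598-185454897, plus strand: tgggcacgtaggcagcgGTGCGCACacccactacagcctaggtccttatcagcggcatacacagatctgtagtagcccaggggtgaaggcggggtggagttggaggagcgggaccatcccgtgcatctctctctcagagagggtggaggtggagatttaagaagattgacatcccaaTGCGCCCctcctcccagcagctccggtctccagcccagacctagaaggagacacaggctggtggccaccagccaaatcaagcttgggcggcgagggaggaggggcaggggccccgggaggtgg
Counting the first base of the gene as 1, the Mt1 window held 3 matches, at -23 to -17, 3 to 9 and 21 to 27, and the Mt2 window held 4, at -223 to -217, -128 to -122, -50 to -44 and 5 to 11. Slc30a1 had 2 matches, and Slc30a10 had 3, of which 2 were the same letters read on opposite strands, shifted by a base. Slc39a5 and Slc39a8 each had 2 windows, and for each gene 1 of them held a single match, while the Mtf1 window held 0. Of 32851 windows of the same length, 25.7% held at least 1 match, 7.11% at least 2, 1.97% at least 3 and 0.517% at least 4. A match describes the letters only. Gene starts here are those of the RefSeq annotation, and where transcription starts in these livers was not examined.

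Mt1 (ENSMUSG00000031765.7, GRCm38 chromosome 8, 94179089 to 94180325) and Mt2 (ENSMUSG00000031762.6, chromosome 8, 94172618 to 94173567) lie 5522 bases apart on the plus strand and encode the 2 metallothioneins that liver expresses. Mt1 had the highest mean level per length of the 9 genes in each of the 4 groups. In NDWT replicates 1 to 5 its level was 70.3, 28.1, 130, 179 and 66.6 FPKM, and in NDKO it was 513, 91.3, 108, 219 and 506 FPKM. On CDAHFD it was 91.0, 167, 190, 301 and 127 FPKM in HFWT and 258, 284, 162, 226 and 178 FPKM in HFKO. The spread between mice was wide, with the highest NDWT library 6.39-fold above the lowest, and all 4 pairs of groups overlapped. The fitted log2FC was 1.03 ± 0.50 (SE) for CDAHFD against control diet in WT, -0.05 ± 0.50 in the TSP-1 null libraries, 1.5 ± 0.50 for NDKO against NDWT and 0.42 ± 0.50 for HFKO against HFWT. None of these passed the thresholds used throughout, a Benjamini-Hochberg FDR under 0.05 over all genes tested and an absolute log2FC above 0.58.

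Mt2 separated the groups more than Mt1 did, with NDWT alone at the low end. Its level was 14.6, 5.39, 19.3, 20.4 and 12.6 FPKM in NDWT and 327, 39.7, 44.8, 125 and 205 FPKM in NDKO. It was 39.6, 56.5, 74.1, 119 and 48.4 FPKM in HFWT and 57.5, 88.3, 57.0, 58.1 and 80.5 FPKM in HFKO. Every library of the other 3 groups lay above the highest NDWT library, and those 3 groups overlapped each other. NDWT averaged 14.5 ± 6.02 FPKM (SD, n = 5), NDKO 148 ± 121, HFWT 67.6 ± 31.5 and HFKO 68.3 ± 14.99. The ratio of means was 10.2 for NDKO to NDWT and 4.67 for HFWT to NDWT, and these 2 ratios share the NDWT libraries. On the log2(FPKM + 0.1) scale the differences were 3.03 ± 0.49 (SE) and 2.24 ± 0.49, both past the thresholds, whereas HFKO against NDKO was -0.69 ± 0.49 and HFKO against HFWT was 0.10 ± 0.49. Under median of ratios scaling, HFKO against NDKO became -1.23 and passed the thresholds, and leaving out 1 library moved it between -1.05 and -0.29. The genotype difference on CDAHFD less that on control diet was -2.93 ± 0.69 for Mt2 and -1.08 ± 0.71 for Mt1. The Mt2 value passed the thresholds in the fit as planned, but not in 16 of the 20 refits that each left out a library.

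**Figure D1:**
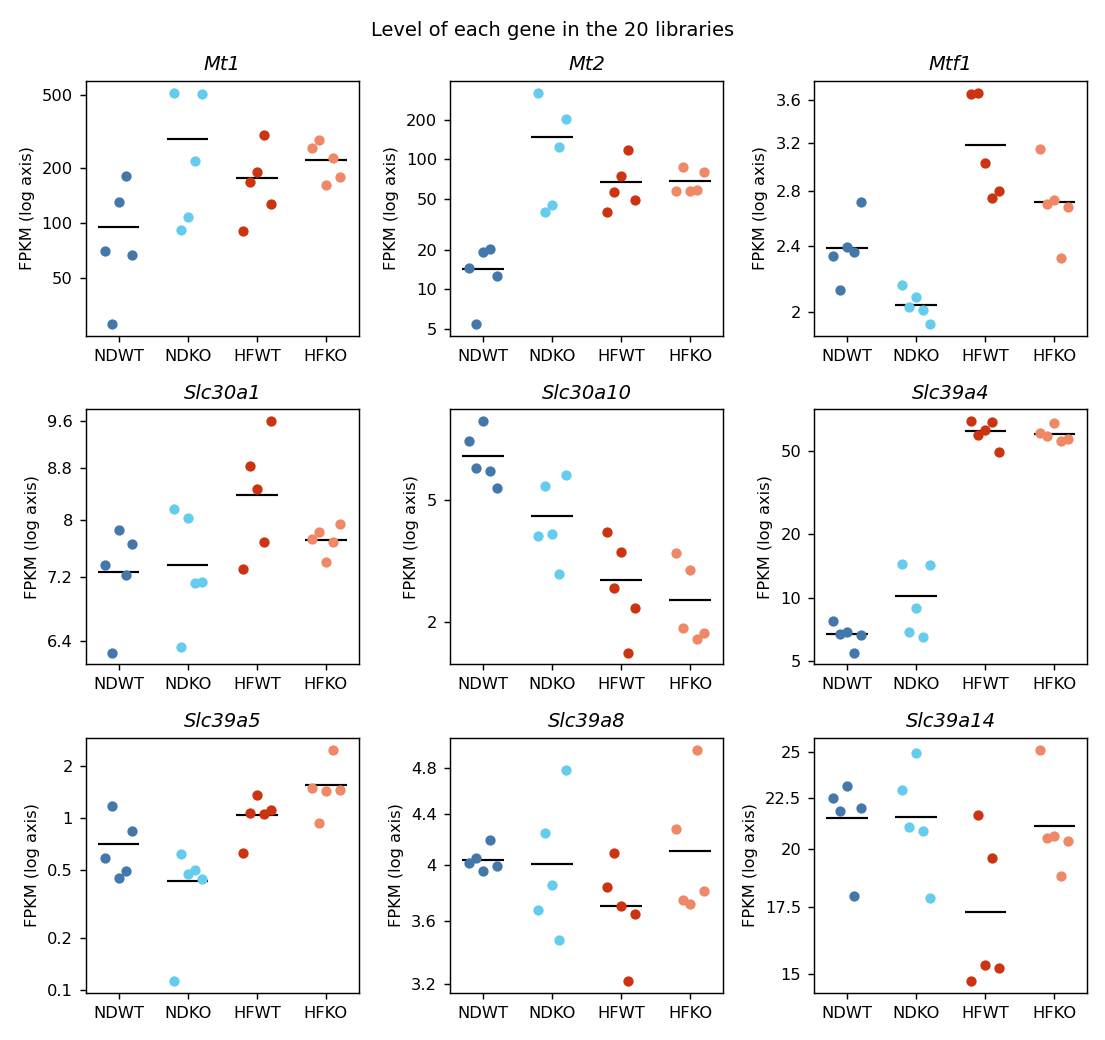
Level of the 9 genes in FPKM (y axis, logarithmic, a separate scale per panel) in the 4 groups (x axis), with 1 point per mouse in replicate order and a line at the group mean. Every Mt2 point of NDKO, HFWT and HFKO lies above the 5 NDWT points, and the Slc39a4 points form 1 low set on control diet and 1 high set on CDAHFD.

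The pair did not keep a fixed ratio. Mt1 was 4.82 to 8.78 times Mt2 in NDWT, with a median of 5.28. The ratio was 1.57 to 2.47 in NDKO (median 2.30), 2.30 to 2.95 in HFWT (2.57) and 2.21 to 4.48 in HFKO (3.22), so the NDWT libraries overlapped none of the other groups. Within groups the 2 genes moved together. Their log2 levels, centred on the group means, had a Pearson r of 0.93 over the 20 libraries, which made each the gene most like the other among all 14524 genes tested. Libraries NDKO 1 and NDKO 5 held the highest Mt1 and Mt2 levels of the series. Mt1 shared no stretch of 31 bases with Mt2 or with any other gene's transcripts. Mt2 shared 330 of its 573 such stretches with Gm45774, which the table does not list.

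**Figure D2:**
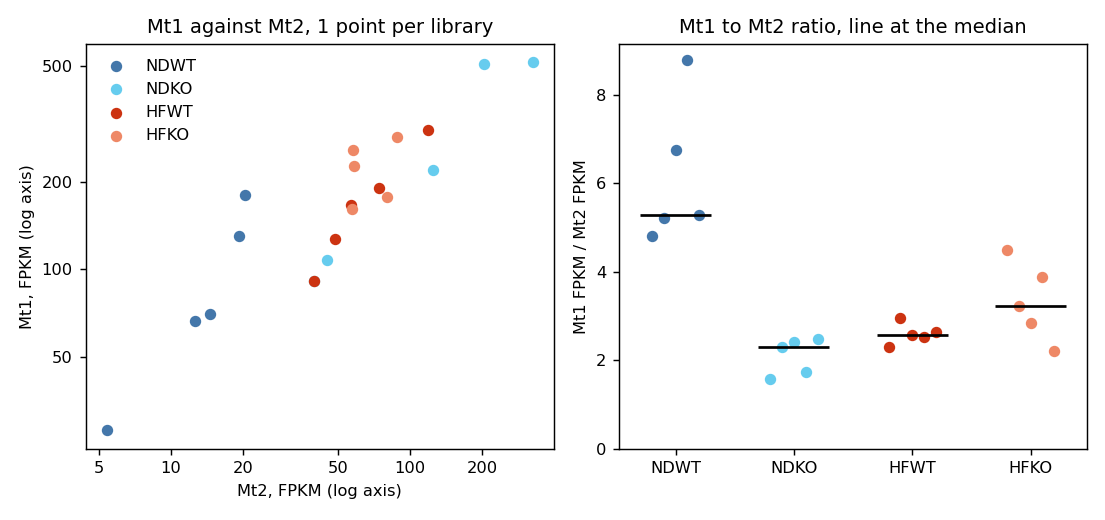
Left, Mt1 against Mt2 in FPKM, both on logarithmic axes, with 1 point per library coloured by group. Right, the ratio of Mt1 to Mt2 FPKM per library with a line at the group median, where the 5 NDWT libraries lie at 4.82 to 8.78 and the other 15 at 1.57 to 4.48.

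The other metallothionein genes were close to absent. Mt3, mainly a brain form, had at most 4 fragments in any library and 0 on control diet, and Mt4, a form of stratified epithelium, had 0 fragments in all 20 libraries. Neither was tested.

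Mtf1 (ENSMUSG00000028890.7, chromosome 4, 124802104 to 124849800) encodes MTF-1 itself. NDWT averaged 2.39 ± 0.211 FPKM (SD, n = 5), NDKO 2.04 ± 0.0828, HFWT 3.18 ± 0.458 and HFKO 2.71 ± 0.291. CDAHFD libraries were higher without overlap in both genotypes, at a log2FC of 0.39 ± 0.10 (SE) in each, below the fold threshold. The median log2FC of all tested genes was 0.53 in WT and 0.50 in the TSP-1 null libraries in the same comparisons, so relative to it Mtf1 was lower by 0.14 and 0.11. The sign for Mtf1 therefore depends on how the libraries are scaled. An exon stretch of Mtf1 is shared with 1110065P20Rik on the opposite strand (691 stretches of 31 bases), which lay at 4.02 to 9.32 FPKM, and whether the counting used strand was not stated.

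Among the exporters, Slc30a1 and Slc30a10 differed. Slc30a1 (ENSMUSG00000037434.7, chromosome 1, 191906767 to 191913247) encodes ZnT1, the plasma membrane zinc exporter and a known MTF-1 target. It ranged from 6.26 to 9.60 FPKM over all 20 libraries, the groups overlapped in all 4 comparisons, and its log2FC lay between -0.11 and 0.20 with an SE of 0.08. Its diet values of 0.20 in WT and 0.07 in the TSP-1 null libraries became -0.36 and -0.46 under median of ratios scaling, so their sign depends on the scaling. It did not move with Mt2 between NDWT and NDKO, where its log2FC was 0.01 ± 0.08.

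Slc30a10 (ENSMUSG00000026614.6, chromosome 1, 185454848 to 185468762), whose product is known as a manganese exporter of hepatocytes, was lower on CDAHFD. It was measured at 7.77, 6.33, 8.99, 6.20 and 5.44 FPKM in NDWT and at 3.93, 2.58, 3.38, 1.59 and 2.23 FPKM in HFWT. All 5 HFWT libraries lay below all 5 NDWT libraries. NDKO libraries held 3.81, 5.54, 3.86, 2.86 and 6.001 FPKM and HFKO libraries 3.35, 1.92, 2.96, 1.76 and 1.84 FPKM, and these 2 groups overlapped. The log2FC was -1.35 ± 0.24 (SE) in WT and -0.87 ± 0.24 in the TSP-1 null libraries, both past the thresholds, against medians of 0.53 and 0.50 for all genes tested. NDKO against NDWT was -0.67 ± 0.24, short of the FDR threshold.

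The importer Slc39a4 showed the largest diet difference of the 9 genes. Slc39a4 (ENSMUSG00000063354.6, chromosome 15, 76612385 to 76616852, minus strand) encodes ZIP4, best known as the intestinal zinc importer, whose human loss causes acrodermatitis enteropathica. It lay at 7.73, 6.74, 6.87, 5.45 and 6.63 FPKM in NDWT and at 14.5, 6.85, 8.87, 6.47 and 14.4 FPKM in NDKO. On CDAHFD it reached 69.5, 59.8, 62.7, 68.7 and 49.5 FPKM in HFWT and 60.7, 58.8, 68.1, 55.9 and 57.2 FPKM in HFKO. The diets did not overlap, and the lowest CDAHFD library held 49.5 FPKM against 14.5 in the highest control diet library. The ratio of means was 9.28 in WT and 5.89 in the TSP-1 null libraries. The log2FC was 3.19 ± 0.18 (SE) and 2.63 ± 0.18, both past the thresholds. In mean level per length Slc39a4 ranked 6 of 9 in NDWT and 3 of 9 in HFWT and HFKO, where its range overlapped that of Mt2 next above it and stood apart from Slc39a14 next below it. NDKO 1 and NDKO 5, the libraries highest in Mt1 and Mt2, were also the highest in Slc39a4 on control diet. Over all 20 libraries, centred on the group means, the Pearson r of Slc39a4 was 0.51 with Mt2 and 0.42 with Mt1. Slc39a4 shared no 31-base stretch with another gene.

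Slc39a5 (ENSMUSG00000039878.6, chromosome 10, 128395934 to 128401224, minus strand) encodes ZIP5, a basolateral importer of intestine and pancreas. It had the lowest mean of the 9 genes in every group. Its levels were 0.582, 1.18, 0.446, 0.490 and 0.843 FPKM in NDWT and 0.113, 0.617, 0.475, 0.497 and 0.439 FPKM in NDKO. They were 0.625, 1.07, 1.36, 1.05 and 1.11 FPKM in HFWT and 1.48, 0.926, 1.43, 2.48 and 1.45 FPKM in HFKO. HFKO lay above NDKO without overlap, at a log2FC of 1.69 ± 0.31 (SE), past the thresholds, while HFWT and NDWT overlapped, at 0.54 ± 0.31. Under quantile normalization the values became 0.71, no longer past the thresholds, and -0.54, so the sign in WT depends on the scaling. A library held 5 to 105 fragments of this gene, so counting error is large. Slc39a5 lies wholly inside the span of Ankrd52 on the opposite strand but shares no 31-base stretch with its transcripts. Ankrd52 was at 4.70 to 9.32 FPKM, and its own log2FC on CDAHFD was 0.59 in WT and 0.54 in the TSP-1 null libraries (limma FDR 1.7e-05 and 5.1e-05). The pancreatic acinar markers summed to at most 0.576 FPKM in any library, with Cela3b, Pnlip and Clps at 0 in all 20.

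The remaining importers differed little between groups as deposited. Slc39a8 (ENSMUSG00000053897.9, chromosome 3, 135825279 to 135888572) encodes ZIP8, and Slc39a14 (ENSMUSG00000022094.9, chromosome 14, 70303469 to 70351425, minus strand) encodes ZIP14, both carriers of zinc, manganese and iron. ZIP14 is known as the liver zinc importer induced by interleukin-6. Slc39a8 ranged from 3.22 to 4.97 FPKM and its log2FC from -0.13 to 0.14 (SE 0.09). Slc39a14 averaged 21.5 ± 2.03 FPKM (SD, n = 5) in NDWT and 21.5 ± 2.63 in NDKO, and on CDAHFD 17.3 ± 3.11 in WT and 21.1 ± 2.38 in the TSP-1 null libraries. Its log2FC was -0.32 ± 0.11 (SE) for HFWT against NDWT and 0.29 ± 0.11 for HFKO against HFWT, with overlap in both and neither past the thresholds. Under median of ratios scaling of the libraries, HFWT against NDWT became -0.88 for Slc39a14 and -0.67 for Slc39a8, both then past the thresholds. Under quantile normalization these became -0.66 and -0.84, and Slc39a8 also passed for HFKO against NDKO, at -0.61.

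Over the 9 genes, 3 passed the thresholds for diet in WT (Mt2 and Slc39a4 higher, Slc30a10 lower), where 48.8% of the 14524 tested genes did, and 3 for diet in the TSP-1 null libraries (Slc39a4 and Slc39a5 higher, Slc30a10 lower), where 45.9% did. For genotype, 1 member passed on control diet (Mt2, higher) against 4.77% of all genes, and 0 passed on CDAHFD against 0.496%. Mt2 was the 1 member past the thresholds for the interaction, against 0.647%. Members whose groups did not overlap numbered 4 for diet in WT (56.2% of all genes), 3 for diet in the TSP-1 null libraries (57.8%), 1 for genotype on control diet (9.03%) and 0 on CDAHFD (4.98%). All 9 members passed the filter on low values. The members' median log2FC was 0.39, 0.03, -0.00 and 0.10 in the 4 comparisons, beside 0.53, 0.50, -0.07 and -0.10 for all tested genes. Since these contrasts may have served to choose the members, nothing is read from the shares. The diet comparisons called 6412 genes higher and 671 lower in WT, a split that became 3299 and 2242 under median of ratios scaling and 2514 and 2562 under quantile normalization. In the TSP-1 null libraries it was 6088 and 581, then 3225 and 1980, and 2421 and 2186. On control diet the genotype split of 253 higher and 440 lower became 348 and 329, and 246 and 236, and on CDAHFD 24 and 48 became 38 and 27, and 65 and 39. Without HFWT 5, 3 members again passed in each diet comparison, 1 for genotype on control diet, 0 on CDAHFD and 0 for the interaction.

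**Figure D3:**
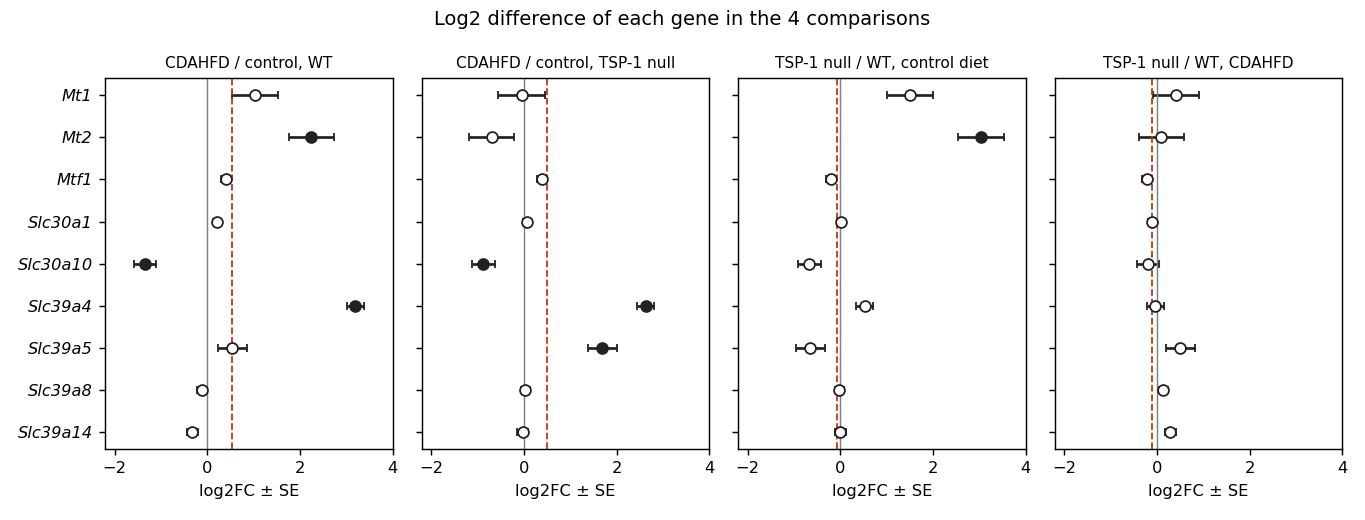
Log2FC ± SE of the 9 genes (x axis) in the 4 comparisons (panels), with filled points past the thresholds, a grey line at 0 and a dashed line at the median of all 14524 tested genes. Slc39a4 lies at 3.19 and 2.63 for diet, and Mt2 at 2.24 for diet in WT and at 3.03 for genotype on control diet.

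The rest of the zinc transporter families is what remains after the members were taken out on measured values, and it was listed with earlier results known. Of 18 further SLC30 and SLC39 genes 14 passed the filter on low values, and Slc30a2, Slc30a3, Slc30a8 and Slc39a12 did not. On CDAHFD 7 of the 14 rose and 0 fell in WT, and 7 rose and 1 fell in the TSP-1 null libraries, beside 48.8% and 45.9% of all genes called. With a median log2FC of 0.56 and 0.54, the 14 genes sat near the medians of all genes. Slc39a6 and Slc39a10, whose products ZIP6 and ZIP10 form a plasma membrane importer, rose most in WT, by a log2FC of 1.91 ± 0.19 (SE, limma FDR 3.1e-08) and 1.43 ± 0.17 (FDR 3.2e-07). Their means went from 0.501 to 2.15 FPKM and from 0.541 to 1.63 FPKM. In the TSP-1 null libraries the changes were 1.71 and 1.52. Slc39a11, encoding ZIP11, had the highest level of those past the thresholds, going from 6.67 ± 0.638 (SD, n = 5) to 14.9 ± 0.975 FPKM in WT and from 5.73 ± 0.897 to 14.9 ± 1.40 in the TSP-1 null libraries. Slc39a7 and Slc39a13, importers that release zinc from the endoplasmic reticulum and Golgi, rose by 0.62 and 0.78 in WT and 0.84 and 0.60 in the TSP-1 null libraries, and Slc30a7, which loads the secretory pathway, by 0.73 and 0.87. Slc39a3, encoding the importer ZIP3, rose by 0.87 and 0.82. The more abundant Slc39a1, chosen after its values were seen, went from 41.9 to 54.5 FPKM in WT and from 38.8 to 53.8 in the TSP-1 null libraries, a log2FC of 0.38 and 0.47 (limma FDR 0.00046 and 4.9e-05), below the fold threshold. Slc39a2, encoding ZIP2, fell by 0.75 in the TSP-1 null libraries (limma FDR 0.0061), while its WT value was -0.09 ± 0.23 (SE, FDR 0.73), and the difference between the genotypes did not pass the thresholds. It lay at 13 to 63 fragments per library. With median of ratios scaling, 3 of the 14 genes passed in WT and 4 in the TSP-1 null libraries. Between genotypes 0 of the 14 passed in limma on either diet or for the interaction. Of all genes, 4.77% passed on control diet, 0.496% on CDAHFD and 0.647% for the interaction. Of the 14, 7 on control diet, 3 on CDAHFD and 1 for the interaction had an unadjusted p under 0.05 in limma. The share of all genes under that looser cut was not counted. These counts cannot be set against the shares above and are not read as a result.

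**Figure D4:**
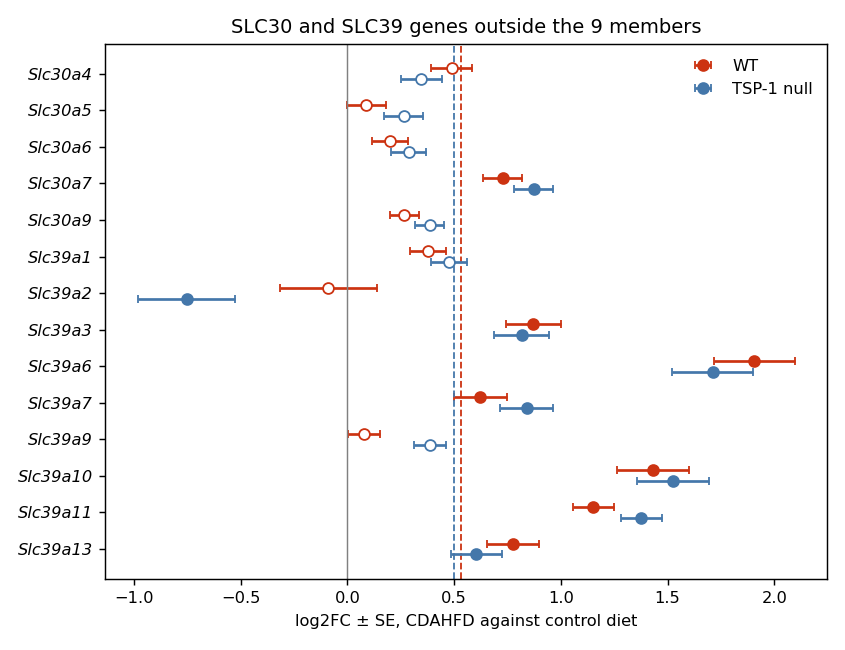
Log2FC ± SE for CDAHFD against control diet (x axis) of the 14 other SLC30 and SLC39 genes tested, in WT (red) and TSP-1 null (blue) libraries, with filled points past the thresholds and dashed lines at the medians of all tested genes. The 7 genes past the thresholds in WT are all higher on CDAHFD, and Slc39a2 is the 1 gene past them in the lower direction.

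Further genes were taken from 3 lists. The glucocorticoid list and the interleukin-6 and acute phase list concern signals known to act on metallothioneins. The other list holds copper and manganese genes. Of 11 genes of the glucocorticoid list, 4 rose and 0 fell in NDKO against NDWT, where 4.77% of all genes passed in either direction. The list median was 0.45 beside -0.07. The 3 lists were chosen with earlier results of these data known, so nothing is read from their counts or medians. Besides response genes, the list holds the receptor gene Nr3c1 and the enzyme gene Hsd11b1. Nr3c1, picked after its values were seen, lay at 9.72 to 12.0 FPKM in NDWT and 7.35 to 9.08 in NDKO. It was thus lower without overlap, as 9.03% of all genes were apart in either direction, but did not pass the thresholds. Zbtb16, a zinc finger repressor, rose by 2.34 ± 0.42 (SE, limma FDR 0.0016), from 1.07 to 2.47 FPKM in NDWT to 3.43 to 12.7 in NDKO. Cdkn1a, a cell cycle inhibitor, rose by 1.55 (FDR 0.0060), Per1, a clock gene, by 1.13 (FDR 0.011) and Tsc22d3, which encodes GILZ, by 0.79 (FDR 0.025). The genes of this list did not share an order over the NDKO libraries. In NDKO 1 and NDKO 5, the libraries highest in Mt1, Mt2 and Slc39a4, Tsc22d3 was highest (23.1 and 21.4 FPKM against 10.8 to 12.2 in the other 3), as was Per1 (6.38 and 6.82 against 3.02 to 4.93). Zbtb16 was at 11.8 FPKM in NDKO 1 and 3.43, its lowest, in NDKO 5, and Cdkn1a was also lowest in NDKO 5, at 4.32 FPKM. Fkbp5 (10.4 and 9.39 against 13.2 to 17.2) and Dusp1 (7.44 and 6.58 against 8.08 to 11.9), chosen after their values were seen, were lowest in those 2 libraries. Between HFKO and HFWT 0 of the 11 passed in limma, where 0.496% of all genes did. An unadjusted p under 0.05 in limma was found for 3 of the 11 there and for 9 on control diet. The share of all genes under that looser cut was not counted, so these counts are not read as a result. Per1 (9.97 to 11.9 FPKM in HFKO against 5.21 to 9.47 in HFWT) and Klf9 (40.1 to 47.9 against 28.9 to 38.3) did not overlap. The other genes of the list did overlap, and 4.98% of all genes did not. For CDAHFD against control diet the list gave 4 higher and 2 lower in WT, where 48.8% of all genes passed. Sgk1 (a log2FC of 1.98), Cdkn1a (2.82), Hsd11b1 (-0.72) and Per1 (1.60) led these. In the TSP-1 null libraries the list gave 3 higher and 1 lower, where 45.9% of all genes passed. They were Sgk1 at 1.66, Per1 at 1.2, the amino acid enzyme Tat at -1.07 and Dusp1 at 0.65.

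Of 23 genes of the interleukin-6 and acute phase list, 8 rose and 3 fell on CDAHFD in WT, and 10 rose and 1 fell in the TSP-1 null libraries, shares near the 48.8% and 45.9% of all genes. The list medians of 0.27 and 0.31 lay below the 0.53 and 0.50 of all genes. Lcn2, which encodes an iron siderophore binder, went from 3.97 to 108 FPKM in WT and from 2.09 to 87.1 in the TSP-1 null libraries. Il1rn rose by 2.06 and 2.08, the metalloreductase gene Steap4 by 2.14 and 2.56, and the serum amyloid gene Saa3 by 3.15 and 3.24. Between NDKO and NDWT, 2 of the 23 rose and 0 fell, where 4.77% of all genes passed in either direction. A count this small is not read as a result about the list. The 2 genes were Il6ra, the interleukin-6 receptor, from 9.76 to 16.7 FPKM (log2FC 0.80 ± 0.15, SE, limma FDR 0.0019) and the transcription factor gene Cebpd from 4.57 to 10.4 FPKM (1.15 ± 0.22, FDR 0.0022). NDKO 4 stood apart in this list, with the serum amyloid genes Saa1 at 1216 FPKM and Saa2 at 1117, against 33.2 to 253 and 13.1 to 127 in the other NDKO libraries, and these genes were not highest in NDKO 1 and NDKO 5. They too were chosen after their values were seen. Between HFKO and HFWT 0 of the 23 passed in limma, where 0.496% of all genes did, and 7 had an unadjusted p under 0.05. The share of all genes under that looser cut was not counted, so the 7 are not read as a result.

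Of 14 copper and manganese genes, 6 rose and 0 fell on CDAHFD in WT, where 48.8% of all genes passed, and 8 rose and 1 fell in the TSP-1 null libraries, where 45.9% did. The list medians were 0.52 and 0.65, beside 0.53 and 0.50. Tmem165, a Golgi manganese transporter, rose by 2.07 and 1.82 and Slc11a2, the divalent metal importer DMT1, by 1.18 and 1.61. Slc31a2 rose by 0.95 and 1.11 and the copper ATPase gene Atp7a by 1.13 and 1.38. Atp7b and Atp2c1 rose by 0.87 and 0.67 in the TSP-1 null libraries, and their WT values were 0.40 and 0.48, below the fold threshold. Between genotypes 0 of the 14 passed in limma, where 4.77% of all genes did on control diet and 0.496% on CDAHFD. Of the 14, 10 on control diet and 3 on CDAHFD had an unadjusted p under 0.05 in limma. The share of all genes under that looser cut was not counted, so these counts are not read as a result.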

How the data were processed

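The table deposited by the authors holds FPKM for 38924 genes in 20 libraries, made from poly(A) RNA with a directional kit and QuickRNASeq. The submitters' processing notes name STAR 2.5.2, featureCounts and Subread 1.5.1, and a human build, although the coordinates are mouse GRCm38. Whole fragments were recovered from FPKM, gene length and library total. They were used for depth and for the fragment counts and shares quoted for single genes, and not in the limma fit. Limits from them cover counting error only. Sources differ on the lobe sampled (right medial in the series text, right lateral in the paper).

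Groups follow the sample labels. The 14524 genes that exceeded 0.5 FPKM in 5 or more libraries were fitted with limma 3.58.1 in R 4.3.3 on log2(FPKM + 0.1), with a mean per group over all 20 libraries and eBayes with trend. A fold change on this scale understates that of low genes. A gene was called when its two-sided FDR (Benjamini-Hochberg over all tested genes) was below 0.05 and its absolute log2FC above 0.58. The script was tested on simulated data. No library was a copy of another: in the 40 same-group pairs, chi-square over its degrees of freedom never fell below 12.1.

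Members and lists were chosen with earlier results of these data known. All members are named; of the other SLC30, SLC39 and metallothionein genes at most the 8 called with the lowest FDR, of the 3 further lists at most 4 per comparison, and the tested genes most like each member (5 for Mt1, 3 for the others), of which 1 is not reported here. Alternatives were pseudocounts, filters, scalings, thresholds, a replicate block and leaving out each library. Python 3.11.15, pandas 2.3.3 and matplotlib 3.10.9 made tables and figures.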

Additional observations from a re-analysis of the deposited data

Results flagged for a closer look

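The interaction value of Mt2, its genotype difference on CDAHFD less that on control diet, was -2.93 on the log2 scale in the fit as planned. It lay between -3.29 and -2.54 over the alternatives, and 5 of 8 settings and 16 of 20 refits without a library put it outside the thresholds. Mt2 is a member selected on values of these libraries, so this value is a description and not a test. Slc39a14 in NDWT 4 (17.951 FPKM) lay far below the other 4 NDWT libraries at 21.8 to 23.1 FPKM. Slc39a14 in HFKO 1 (25.131 FPKM) lay far above the other 4 HFKO libraries at 18.8 to 20.6 FPKM. These are 2 of 36 groups of 5 libraries examined for a distant value, and chance marks about 1 in 20.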

How the results depend on the processing

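Of 1296 values of the members' log2FC under the alternatives, 1269 moved by less than the spread between replicates and 27 by more. Median of ratios scaling shifted the median of all tested genes by -0.54 for diet in WT and -0.51 in TSP-1 null libraries, and quantile normalization by -0.62 and -0.58. Diet in WT called 3 members, and 5 under either scaling and 6 without the fold threshold; it called 7 other zinc transporters, and 3 under either scaling and 11 without the fold threshold. Diet in TSP-1 null libraries called 8 other zinc transporters, and 4 with median of ratios scaling, 3 with quantile normalization and 14 without the fold threshold, which also took all genes from 6669 to 10406. There Mt2 was called lower with median of ratios scaling, at -1.23. Under quantile normalization Slc39a5 was not called, at 0.71, and Slc39a8 was called lower, at -0.61.

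Genotype on control diet called 693 genes, and 393 with a pseudocount of 1 and 1899 without the fold threshold. It called 1 member, and 2 with FPKM above 1 or with the replicate block, 3 with median of ratios scaling (Mt1 at 1.58 and Slc39a4 at 0.60 added) and 1 to 3 with a library left out. Mt1 was called without NDWT 4, NDKO 2 or NDKO 3, Slc39a4 without NDKO 2 or NDKO 4, and Slc30a10 without NDKO 5. For diet in WT, Mt1 was called without NDWT 3, NDWT 4 or HFWT 1, and Slc39a5 without NDWT 2. The other zinc transporters went from 0 to 3 without the fold threshold. Genotype on CDAHFD called 72 genes, and 127 with no filter, 40 with only the groups compared, 163 without the fold threshold and 38 to 84 with a library left out. The interaction called 94 genes, and 54 with no filter and 36 to 184 with a library left out.

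The 1 member called for the interaction, Mt2, gave 0 with a pseudocount of 0.01, no filter, quantile normalization, eBayes without trend or the replicate block, and 0 to 1 with a library left out. The cause was not tested. Replicate numbers share only a number: same-numbered libraries correlated at -0.13 to 0.081, with 0 pairs above 0.1, and the replicate block added Slc30a10 to the members called for genotype on control diet.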

Other observations

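The genes whose levels most resembled each member within groups are given as Pearson r over the 20 libraries, after centring log2(FPKM + 0.1) on the group means, among 14524 genes; the libraries share depth and scaling, and no p is given. For Mt1 they were Mt2 (0.93), Ctsl (0.81), Mllt10 (0.81), Gm14378 (0.81) and Gca (0.79), and for Mt2 they were Mt1 (0.93), Slc25a12 (0.85) and Ctsl (0.82). Slc30a10 was most like Npas2 (0.86), a clock gene, and Tars (0.83). Slc39a4 was most like Mfsd7a (0.83), Zbtb48 (0.79) and Sema4g (0.78). Slc39a5 was most like Kat2b (0.82), Trappc2l (0.81) and Ccp110 (0.81), and its r with Mt2 was -0.59. Mtf1 was most like Rprd1a (0.81), Luzp1 (0.78) and Trmt1l (0.76). Slc30a1 was most like Nrg4 (0.79), Zfp961 (0.78) and 2810021J22Rik (0.77). Slc39a8 was most like E330009J07Rik (0.86), Gid4 (0.81) and Enpep (0.79), and Slc39a14 was most like Pnn (0.76), Cldnd2 (0.74) and Fam212a (0.74).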
